A study of Rattus norvegicus with 12 samples.

Results

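The genes described here are 8 genes of MHC class II antigen presentation in rat lung: RT1-Da, RT1-Db1, RT1-Ba, RT1-Bb, RT1-DMa, RT1-DMb, Cd74 and Ciita. They were taken by symbol from the array's annotation, and all 8 of the 8 listed genes were measured, by 14 of the 31042 probe sets, among 14217 genes in all. A probe set is a group of short probes designed against one transcript, and its value here is a level on the log2 scale. Expression was measured in lungs of male wild-type Sprague Dawley rats of 250 to 350 g on 12 Affymetrix arrays, each hybridised with material made from 6 ug of total RNA. The sham group had the control operation, the BD group had brain death brought about by inflating a Fogarty balloon catheter outside the dura, the SEW group received SEW-2871 intravenously at 0.1 mg/kg, and the BD/SEW group received the same dose 15 min after brain death. Each group holds 3 arrays. SEW-2871 is an agonist of the sphingosine 1-phosphate 1 receptor, and the comparisons ask what brain death does to the lung and whether the agonist alters it. Nothing in the labels numbers the animals, and a sham operation is not stated for the SEW rats; p-values therefore measure spread between these samples only.

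MHC class II molecules are pairs of an alpha and a beta chain that carry peptides from endosomes to the cell surface and show them to CD4+ T cells. In the rat they are encoded in the RT1-D and RT1-B regions, the counterparts of human HLA-DR and HLA-DQ. The invariant chain, encoded by Cd74, holds the new molecule until it reaches the endosome, RT1-DM exchanges the last fragment of that chain for a peptide, and CIITA, the product of Ciita, switches the whole group of genes on. In the lung, dendritic cells, B cells, macrophages and alveolar type 2 cells carry class II molecules. The genes for the classical chains are highly polymorphic, and Sprague Dawley rats are an outbred stock. The alleles of the animals were not measured here.

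In the protein-coding gene order of rat chromosome 20 in RefSeq (GRCr8), RT1-Da was number 206, RT1-Db1 208, RT1-Ba 209, RT1-Bb 210, RT1-DMb 216 and RT1-DMa 217. Cd74 lies on chromosome 18 and Ciita on chromosome 10. Class II genes are known for a shared promoter module, in which an X box binds the RFX complex and a Y box binds NF-Y, and CIITA docks on the proteins bound there. The 130 bases before the annotated start of 5 of the genes are printed from RefSeq (GRCr8), 5′ to 3′ on the coding strand, to show what the genes of the cluster have in common. Capitals mark matches to 2 motifs chosen after the sequences had been seen, ACNGATG for the X box and TGATTGG for the Y box.
RT1-Da (chr20:4515285-4515414, plus strand): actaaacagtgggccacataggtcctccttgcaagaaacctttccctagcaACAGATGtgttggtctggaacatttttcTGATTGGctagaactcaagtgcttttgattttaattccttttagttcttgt
RT1-Db1 (chr20:4560163-4560292, minus strand): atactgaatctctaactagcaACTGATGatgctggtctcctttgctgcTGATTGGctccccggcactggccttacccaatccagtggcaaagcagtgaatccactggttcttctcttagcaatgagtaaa
RT1-Ba (chr20:4576927-4577056, plus strand): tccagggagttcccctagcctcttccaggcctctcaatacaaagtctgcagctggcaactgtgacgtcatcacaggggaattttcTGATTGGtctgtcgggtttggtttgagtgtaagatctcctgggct
RT1-Bb (chr20:4604119-4604248, minus strand): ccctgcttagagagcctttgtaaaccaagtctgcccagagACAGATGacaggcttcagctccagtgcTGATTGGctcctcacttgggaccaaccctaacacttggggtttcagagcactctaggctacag
RT1-DMa (chr20:4712336-4712465, minus strand): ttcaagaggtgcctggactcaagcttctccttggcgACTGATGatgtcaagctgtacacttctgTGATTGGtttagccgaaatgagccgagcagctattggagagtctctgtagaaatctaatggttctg
The Y motif stood in all 5, starting at position -51 in RT1-Da, -82 in RT1-Db1, -45 in RT1-Ba, -63 in RT1-Bb and -66 in RT1-DMa, counted back from the annotated start. The X motif stood in 4 of them, at -79, -109, -90 and -94 in RT1-Da, RT1-Db1, RT1-Bb and RT1-DMa, with 20 or 21 bases between it and the Y motif. It was not found in RT1-Ba. On either strand, 4.17% of 33469 rat promoter windows of that length held the X motif, 4.27% the Y motif and 0.167% both (56 windows). Overlap, order and spacing of the motifs were not checked in these counts. The Cd74 window held neither motif in these letters. A match is a description of letters, and RT1-DMb and Ciita are named only.

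Some arrays had high levels of cardiac muscle and adipocyte markers, and where these transcripts came from was not tested. Averaged over 17 cardiac muscle markers, the level was 9.8 to 10.82 for sham, 11.76 for BD replicate 2 and 5.89 to 8.41 for the remaining 8 arrays. Averaged over 11 adipocyte markers, it was 8.62 to 9.63, 9.13 and 6.66 to 7.45 for those same arrays. All 12 arrays held alveolar type 2 markers at a mean of 12.27 to 12.84 (10 genes), as the label lung asks. The median of an array was 7.34 to 7.41, and precision is limited by how many arrays there are.

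Between the groups, none of the 8 class II genes passed the test in any of 6 comparisons. Calls here mean an adjusted p below 0.05 in limma, a linear model whose variances borrow strength across genes, after Benjamini-Hochberg adjustment over all 14217 genes. The 0 of 8 stands beside calls for 0.591% of all genes in BD against sham (0.211% higher, 0.38% lower), 5.84% for SEW against sham (3.4% higher, 2.43% lower), and 0.0141% for BD/SEW against BD (0.0141% higher, 0% lower). The corresponding shares were 9.79% for BD/SEW against SEW (4.75% higher, 5.04% lower) and 2.87% for BD/SEW against sham (1.7% higher, 1.17% lower). The interaction subtracts the effect of brain death in untreated lungs from its effect in treated lungs, and its share was 0.95% (0.851% positive, 0.0985% negative). With shares this low, a count of 0 among 8 genes is near the background in every comparison. The comparisons share groups of arrays and are not independent of each other.

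At an unadjusted p under 0.05 in limma, 1 of 8 members stood out in BD against sham (RT1-Ba; 11% of all genes), 0 for SEW against sham (25.6%), 0 for BD/SEW against BD (5.44%), 1 in BD/SEW against SEW (RT1-DMb; 23.8%), 1 in BD/SEW against sham (RT1-Ba; 17.5%) and 0 in the interaction (12.5%). The arrays of the compared groups did not overlap for 0 of 8 members in BD against sham (15.7% of all genes), 0 for SEW against sham (27.1%), 2 for BD/SEW against BD (RT1-DMa and Ciita; 12.4%), 1 in BD/SEW against SEW (RT1-DMb; 31.8%) and 2 in BD/SEW against sham (RT1-Ba and RT1-DMb; 25.9%). The median log2 difference over the 8 genes was 0.02, -0.06, 0.07, 0.24, 0.14 and 0.24 in the 6 comparisons in the order above. The medians over all genes were 0, 0.02, 0.01, -0.01, 0.01 and -0.02. These medians use 1 probe set per gene, and the sign of RT1-Ba depends on which. In BD/SEW against SEW it was 0.41 by 1377334_at, the one used, and -1.02 by 1370822_at. When every probe set was tested by itself, 0 of the 14 class II probe sets passed in any comparison. The shares over all 31042 probe sets were 0.432%, 2.71%, 0.0129%, 7.08%, 1.63% and 0.451% in the same order.

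**Figure D1:**
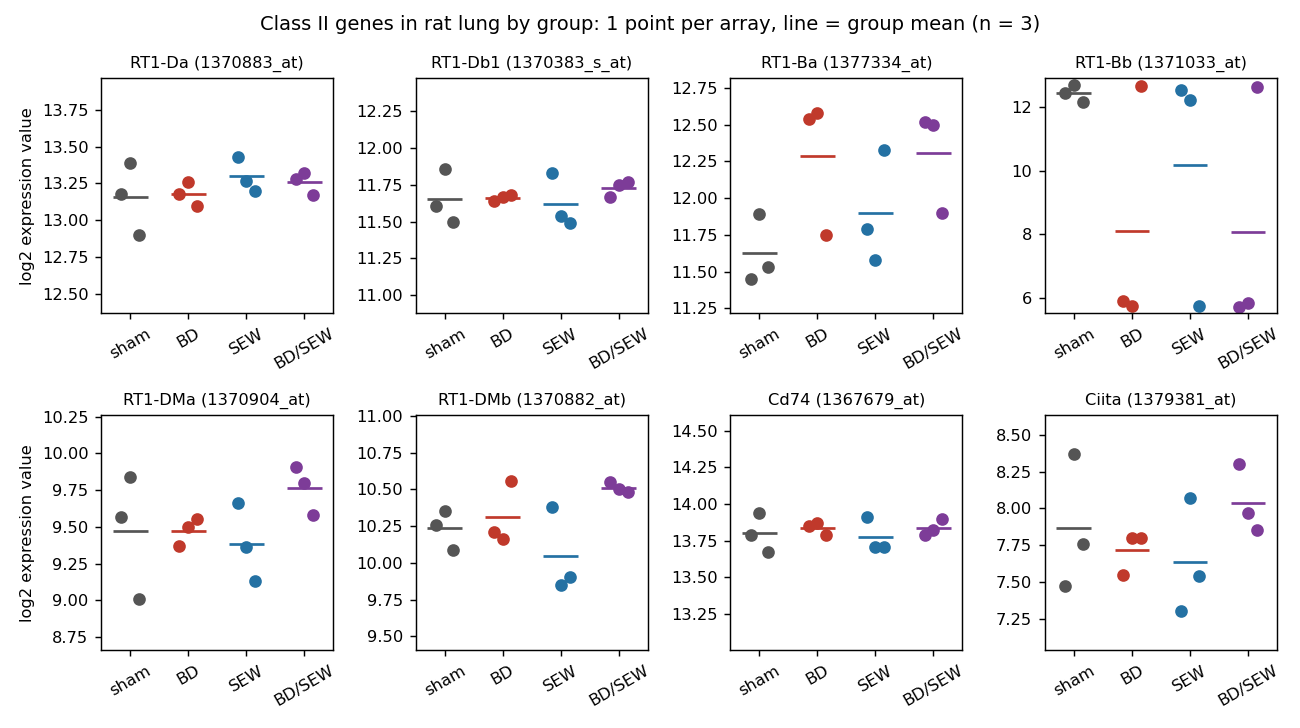
Level of each class II gene in every array (vertical axis, log2 expression value; horizontal axis, group), 1 point per array and a line at the mean of the 3 arrays of a group, for the probe set with the highest mean. The axes differ between panels: RT1-Bb spans 5.72 to 12.7, while Cd74 spans 13.67 to 13.94.

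RT1-Da encodes the alpha chain of the RT1-D molecule, and its level was nearly the same in every group. It was 13.18, 13.39 and 12.9 in sham, 13.18, 13.26 and 13.1 in BD, 13.43, 13.27 and 13.2 in SEW, and 13.28, 13.32 and 13.17 in BD/SEW (log2). The groups overlapped, and the sham arrays alone covered nearly the whole range. The order of the means ran SEW, BD/SEW, BD, sham, from 13.3 ± 0.12 down to 13.16 ± 0.25 (SD, n = 3), and no neighbours in that order differed by more than the larger of their SDs. The log2 difference of BD against sham was 0.02 ± 0.11 (SE; 95% interval -0.23 to 0.27; adjusted p = 0.97 by limma).

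RT1-Db1, the beta chain that pairs with RT1-Da, has 2 probe sets that did not behave alike. Probe set 1370383_s_at, the one with the higher mean, was 11.61, 11.86 and 11.5 in sham, 11.64, 11.67 and 11.68 in BD, 11.83, 11.54 and 11.49 in SEW, and 11.67, 11.75 and 11.77 in BD/SEW. These arrays overlapped in all groups, with means between 11.62 ± 0.18 in SEW and 11.73 ± 0.05 in BD/SEW. Only the step of 0.07 from BD to BD/SEW was larger than the SDs of both groups, and it did not pass the test (adjusted p = 0.99 by limma). The suffix _s_at marks probes that match more than 1 transcript, so transcripts of near copies of the gene may add to this value. Probe set 1370382_at was 10.21, 10.53 and 10.4 in sham, 9.45, 9.57 and 10.61 in BD, 10.58, 10.16 and 9.31 in SEW, and 9.47, 9.54 and 10.64 in BD/SEW. Here the arrays fell into a high and a low set, and both sets held arrays of BD, SEW and BD/SEW.

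RT1-Bb, the beta chain of the RT1-B molecule, showed that separation most widely. Its probe set 1371033_at was 12.43, 12.7 and 12.17 in sham, 5.9, 5.76 and 12.66 in BD, 12.53, 12.22 and 5.75 in SEW, and 5.72, 5.86 and 12.63 in BD/SEW. The 5 low arrays (BD replicates 1 and 2, SEW replicate 3, BD/SEW replicates 1 and 2) lay between 5.72 and 5.9, close to the lower quartile of all probe sets on an array (5.56 to 5.66), and the other 7 between 12.17 and 12.7. No array lay between. The low arrays were 0 of 3 in sham, 2 of 3 in BD, 1 of 3 in SEW and 2 of 3 in BD/SEW. The gap of 6.27 between neighbouring arrays was the widest of all 31042 probe sets, the next widest being 6.04 and the median 0.19. The pooled SD within groups was 3.39, the highest of 14217 genes, against 0.16 for the median gene.

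With 2 such levels in a group, the group mean falls where no array lies. From high to low, the means of 1371033_at were 12.43 ± 0.27 (sham), 10.17 ± 3.83 (SEW), 8.11 ± 3.94 (BD) and 8.07 ± 3.95 (BD/SEW; SD, n = 3), and no neighbours differed by more than the larger SD. The log2 difference was -4.33 ± 2.31 in BD against sham (95% interval -9.39 to 0.74; adjusted p = 0.54 by limma) and -4.36 ± 2.31 in BD/SEW against sham (-9.43 to 0.7; adjusted p = 0.37). SEW against sham gave -2.27, BD/SEW against BD gave -0.04, BD/SEW against SEW gave -2.1, and the interaction was 2.23 ± 3.27. The other probe set of RT1-Bb, 1371065_at, went the other way at a low level: it was 6.11, 6.4 and 6.15 in sham, 6.81, 6.67 and 6.23 in BD, 6.56, 6.25 and 7.09 in SEW, and 6.9, 6.99 and 6.58 in BD/SEW. Its 5 values in the arrays where 1371033_at was low (6.67 to 7.09) lay above the other 7 (6.11 to 6.58). Its log2 difference in BD/SEW against sham was 0.6 ± 0.21, and it did not pass (adjusted p = 0.2 by limma over all probe sets).

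**Figure D2:**
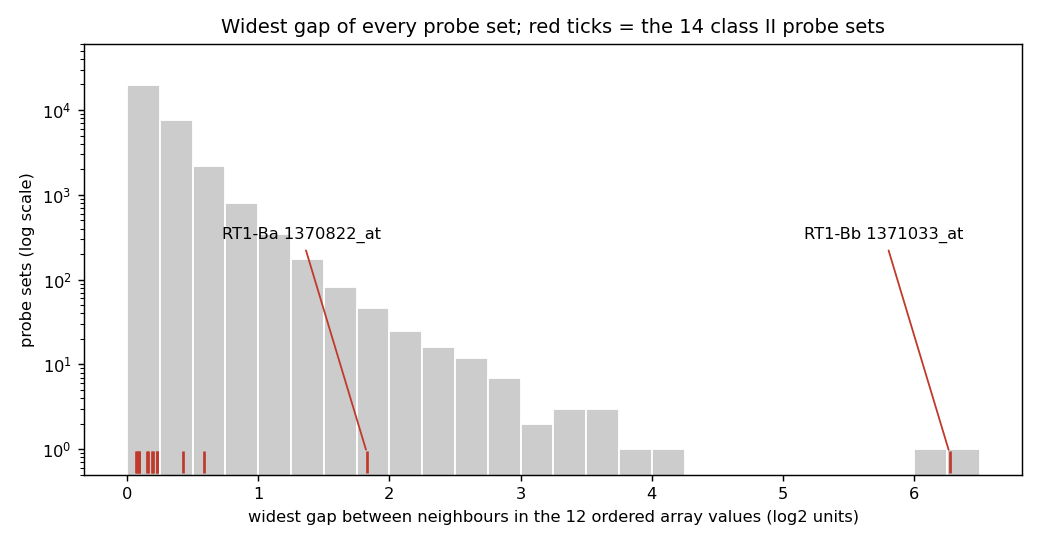
Number of probe sets (vertical axis, log scale) by the widest gap between neighbours when the 12 array values of a probe set are put in order (horizontal axis, log2 units); red ticks mark the 14 class II probe sets. The tick of RT1-Bb 1371033_at stands at 6.27, beyond all other probe sets, whose median is 0.19.

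RT1-Ba, the alpha chain that pairs with RT1-Bb, has 4 probe sets, and 2 of them separated the same 5 arrays in opposite directions. Probe set 1370822_at was 11.02, 11.48 and 10.42 in sham, 8.14, 8.03 and 11.1 in BD, 11.31, 11.33 and 8.18 in SEW, and 8.59, 8.09 and 11.08 in BD/SEW. The 5 arrays low for RT1-Bb read 8.03 to 8.59 here, and the other 7 read 10.42 to 11.48. Probe set 1377334_at was 11.45, 11.89 and 11.53 in sham, 12.54, 12.58 and 11.75 in BD, 11.79, 11.58 and 12.33 in SEW, and 12.52, 12.5 and 11.9 in BD/SEW. In this one the same 5 arrays were the highest, at 12.33 to 12.58, above 11.45 to 11.9 in the other 7. The remaining pair, 1381593_x_at (8.56 to 9) and 1392334_at (8.59 to 9.03), covered narrow ranges over the 12 arrays and did not separate them.

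Because of this, the sign of RT1-Ba in a group comparison depended on the probe set. With 1377334_at, which has the highest mean, the means of RT1-Ba from high to low were 12.31 ± 0.35 (BD/SEW), 12.29 ± 0.47 (BD), 11.9 ± 0.39 (SEW) and 11.62 ± 0.23 (sham), and no neighbours in that order differed by more than the larger SD. The difference was 0.67 ± 0.26 in BD against sham (0.1 to 1.24; adjusted p = 0.36 by limma) and 0.68 ± 0.26 in BD/SEW against sham (0.11 to 1.25; adjusted p = 0.19). With 1370822_at the difference of BD against sham was -1.88 ± 1.03, and with the mean of the 4 probe sets it was -0.24. No direction is given for RT1-Ba for this reason.

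**Figure D3:**
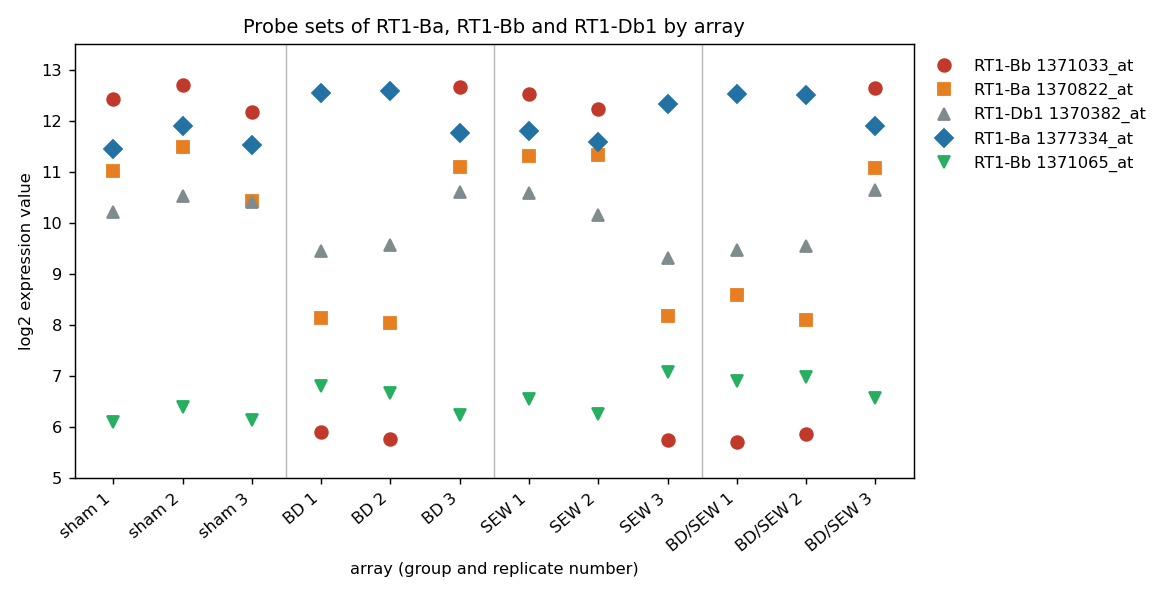
Log2 expression value (vertical axis) of 5 probe sets of RT1-Bb, RT1-Ba and RT1-Db1 in each of the 12 arrays (horizontal axis, group and replicate number). BD 1, BD 2, SEW 3, BD/SEW 1 and BD/SEW 2 are low for RT1-Bb 1371033_at, RT1-Ba 1370822_at and RT1-Db1 1370382_at and high for RT1-Ba 1377334_at and RT1-Bb 1371065_at; levels of different probe sets are not comparable.

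Probe set 1371033_at of RT1-Bb set the split into 5 and 7 arrays. Of the other 13 class II probe sets, 4 separated the same arrays without overlap, 2 with the 5 arrays below (RT1-Ba 1370822_at and RT1-Db1 1370382_at) and 2 with them above (RT1-Ba 1377334_at and RT1-Bb 1371065_at). Of all 31041 other probe sets, these 4 among them, 51 did so (0.164%), 26 with the 5 arrays below and 25 above. All of the class II probe sets with the split belong to RT1-Db1, RT1-Ba and RT1-Bb, which are numbers 208 to 210 in the gene order. The 9 probe sets that overlapped include those of RT1-Da, RT1-DMa, RT1-DMb, Cd74 and Ciita. The arrays were put in 2 sets by RT1-Bb itself, so no test or average was made between the sets. Of the arrays with high cardiac and adipocyte levels, BD replicate 2 is among the 5 and the 3 sham arrays are among the 7. The label check on alveolar type 2 markers gave 12.53 to 12.71 in the 5 arrays, within the range of all 12. What set the 5 and the 7 arrays apart was not tested.

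RT1-DMa and RT1-DMb encode the 2 chains of the molecule that loads peptides. RT1-DMb was 10.26, 10.35 and 10.09 in sham, 10.21, 10.16 and 10.56 in BD, 10.38, 9.85 and 9.9 in SEW, and 10.55, 10.5 and 10.48 in BD/SEW. The 3 BD/SEW arrays were all above the SEW and the sham arrays but not above BD. The means were 10.51 ± 0.04 in BD/SEW, 10.31 ± 0.22 in BD, 10.23 ± 0.13 in sham and 10.04 ± 0.29 in SEW, and no neighbours in this order differed by more than the larger SD. The log2 difference of BD/SEW against SEW was 0.47 ± 0.15 (95% interval 0.14 to 0.8), with an unadjusted p of 0.0096 and an adjusted p of 0.076 by limma, so it did not pass. It passed without SEW replicate 1 (0.64, adjusted p = 0.014 by limma) and with array weights (0.5, adjusted p = 0.013 by limma). Array weights called 2506 of all 14217 genes in this comparison, against 1392 in the main fit.

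RT1-DMa was 9.57, 9.84 and 9.01 in sham, 9.37, 9.5 and 9.55 in BD, 9.66, 9.36 and 9.13 in SEW, and 9.91, 9.8 and 9.58 in BD/SEW. The BD/SEW arrays lay above the BD arrays without overlap, by 0.29 ± 0.2 (-0.14 to 0.72; adjusted p = 0.94 by limma), and overlapped with sham and SEW. The means ran from 9.76 ± 0.17 in BD/SEW through 9.47 ± 0.42 in sham and 9.47 ± 0.09 in BD to 9.38 ± 0.27 in SEW, with no step beyond the larger SD. Against SEW the difference was 0.38 ± 0.2 (adjusted p = 0.28 by limma), and with array weights 0.5 (adjusted p = 0.045 by limma). The weights raised the calls over all genes in that comparison from 1392 to 2506.

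Cd74, the invariant chain, had the smallest pooled SD of the 8 genes. Its mean stood at the 99.9th percentile of all gene means, near the top of the scale of these arrays, and whether differences are compressed there was not tested. It was 13.79, 13.94 and 13.67 in sham, 13.85, 13.87 and 13.79 in BD, 13.91, 13.71 and 13.71 in SEW, and 13.79, 13.82 and 13.9 in BD/SEW. All groups overlapped, and the group means lay between 13.78 and 13.84. Its pooled SD within groups was 0.1, against 0.15 for RT1-Da, 0.13 for RT1-Db1, 0.37 for RT1-Ba, 0.27 for RT1-DMa, 0.19 for RT1-DMb and 0.33 for Ciita. The 95% interval of BD against sham ran from -0.14 to 0.22 and that of SEW against sham from -0.2 to 0.16.

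Ciita encodes the transactivator of the class II genes and was measured by 2 probe sets. In 1379381_at it was 7.47, 8.37 and 7.76 in sham, 7.55, 7.8 and 7.8 in BD, 7.3, 8.07 and 7.54 in SEW, and 8.3, 7.97 and 7.85 in BD/SEW. The BD/SEW arrays lay above BD without overlap (0.32 ± 0.24, adjusted p = 0.96 by limma), while the sham arrays spread over nearly the whole range. The means were 8.04 ± 0.23 in BD/SEW, 7.87 ± 0.46 in sham, 7.72 ± 0.14 in BD and 7.64 ± 0.39 in SEW, with no step beyond the larger SD. The interaction was 0.55 ± 0.34 (-0.19 to 1.3; adjusted p = 0.55). Probe set 1369214_a_at lay between 6.71 and 7.34 in the 12 arrays, with group means from 6.89 to 7.08. Its BD/SEW arrays overlapped with those of BD, at a difference of 0.05 ± 0.17.

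**Figure D4:**
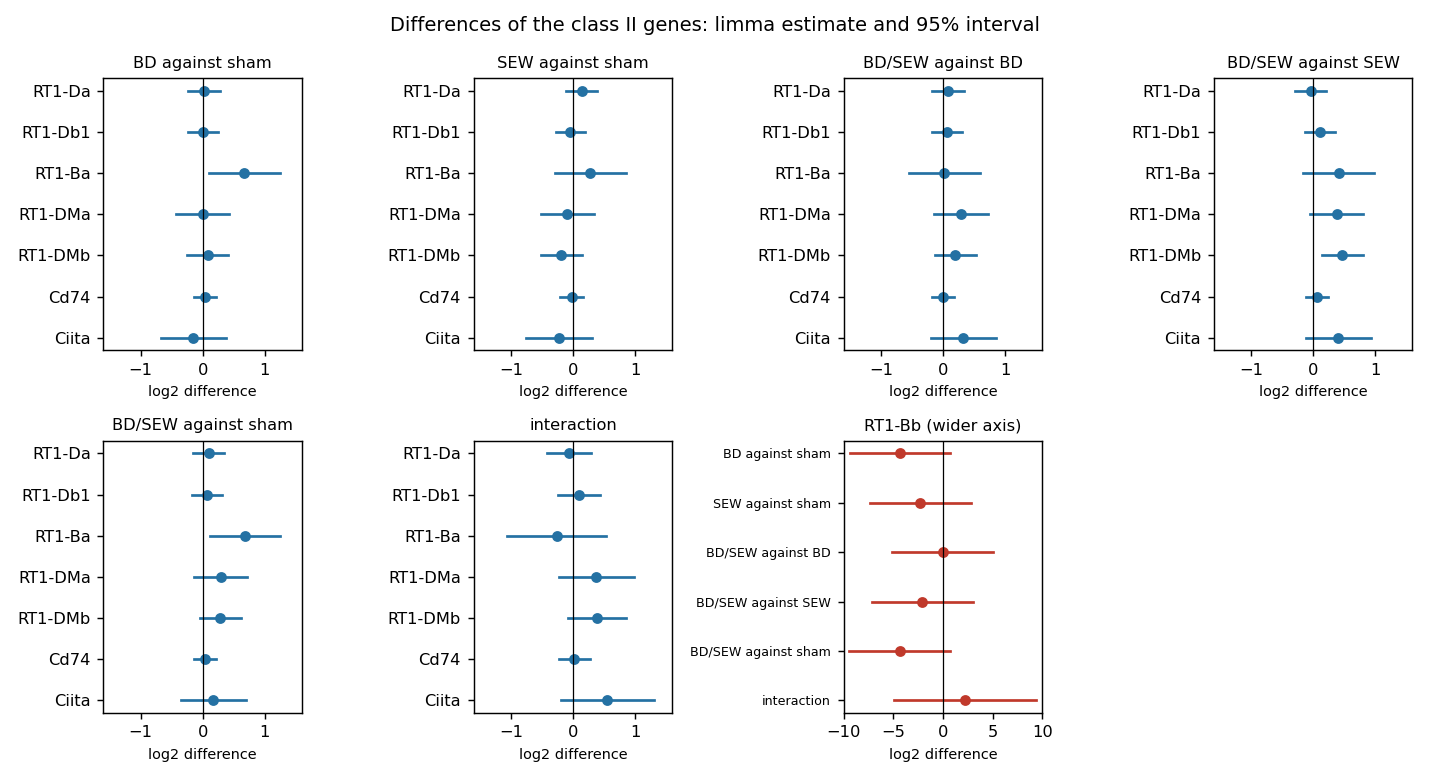
Log2 difference of each class II gene (horizontal axis) in 5 group comparisons and the interaction, as the limma estimate (point) and its 95% interval (line); RT1-Bb has a panel of its own with a wider axis. The intervals of all members cross 0 except RT1-Ba in BD against sham (0.1 to 1.24) and in BD/SEW against sham (0.11 to 1.25) and RT1-DMb in BD/SEW against SEW (0.14 to 0.8), none of which passed after adjustment.

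The genes around the 8 members were described by lists. The lists were chosen with earlier results of these data known, so a count of calls in a list is a description only. Among 7 genes of the factors that bind class II promoters, Rfx5, the DNA-binding subunit of the RFX complex, was the one that passed. It was 10.19, 10.41 and 10.27 in sham, 10.59, 10.65 and 10.5 in BD, 9.98, 9.75 and 10.02 in SEW, and 10.62, 10.75 and 10.66 in BD/SEW. The SEW arrays were the lowest, and those of both brain-death groups were above all sham arrays. Rfx5 rose by 0.76 ± 0.1 in BD/SEW against SEW (adjusted p = 0.00086 by limma), in each of 6 fits that left out a compared array. It missed the threshold in SEW against sham (-0.37, adjusted p = 0.051), BD against sham (0.29, adjusted p = 0.28) and BD/SEW against sham (0.39, adjusted p = 0.065). The median of the 7 genes was -0.21 in BD/SEW against SEW, 0.05 in BD against sham and 0.18 in SEW against sham, and 0 of 7 passed in the comparisons other than BD/SEW against SEW.

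Interferon-gamma is the classical inducer of CIITA, and 11 genes of its signalling were measured. Of these 1 rose and 0 fell in BD against sham, 0 rose and 1 fell for SEW against sham, 0 passed for BD/SEW against BD, 5 rose in BD/SEW against SEW, 3 rose in BD/SEW against sham and 0 passed in the interaction. Irf1, a transcription factor that acts on the Ciita promoter, was 11.06, 11.4 and 11.41 in sham, 12.57, 12.8 and 12.6 in BD, 10.46, 10.95 and 10.27 in SEW, and 13.11, 13.06 and 12.82 in BD/SEW. Its groups did not overlap in any pair. Irf1 rose by 1.37 ± 0.17 in BD against sham (adjusted p = 0.0041 by limma), in 6 of 6 fits that left out an array. It rose by 2.44 ± 0.17 in BD/SEW against SEW (adjusted p = 1.5e-05) and by 1.71 in BD/SEW against sham (adjusted p = 0.0014). Its fall of -0.73 in SEW against sham (adjusted p = 0.03 by limma) was called in 2 of 6 fits that left out an array (-0.93 to -0.59), and not without sham 2, sham 3, SEW 1 or SEW 3. The other 4 that rose in BD/SEW against SEW were Socs1 (2.37) and Socs3 (1.69), inhibitors of cytokine signalling, Ifngr2 (1.23), a chain of the interferon-gamma receptor, and Gbp2 (3.07), an interferon-induced GTPase. Of these Socs3 was called in 2 of 6 fits that left out an array (lowest difference 1.34; not without SEW 1, SEW 3, BD/SEW 1 or BD/SEW 2). In BD/SEW against sham, Ifngr2 (0.82) and Socs1 (1.34) were each called in 1 of 6 such fits (lowest differences 0.68 and 1.14; not without any of the 3 sham arrays, BD/SEW 1 or BD/SEW 2). Ifng itself was between 3.91 and 4.15 in all arrays, below the lower quartile of the arrays.

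Among 8 genes for the turnover of class II molecules and for costimulation, 1 rose in BD against sham, 3 fell for SEW against sham, 0 passed for BD/SEW against BD, 5 rose in BD/SEW against SEW, 2 rose in BD/SEW against sham, and 2 were positive in the interaction. Cd40, the receptor through which T cells activate antigen-presenting cells, was 8.72, 9.12 and 9.28 in sham, 9.92, 9.68 and 9.79 in BD, 8.09, 7.83 and 7.88 in SEW, and 10.3, 10.22 and 10.11 in BD/SEW. Its 4 groups did not overlap, with SEW lowest and BD/SEW highest. Cd40 fell by 1.11 in SEW against sham (adjusted p = 0.0035 by limma) and rose by 2.28 ± 0.14 in BD/SEW against SEW (adjusted p = 1.1e-05) and by 1.17 in BD/SEW against sham (adjusted p = 0.0029). Its difference in BD against sham was 0.76 ± 0.14 (adjusted p = 0.041), called in 2 of 6 fits that left out an array (lowest 0.6; not without sham 1, sham 2, BD 1 or BD 3). The interaction of Cd40 was 1.52 ± 0.2 (adjusted p = 0.0077) and was called in 12 of 12 such fits.

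Marchf1, the ubiquitin ligase that takes class II molecules from the surface, was 9.32, 9.64 and 9.58 in sham, 9.09, 9.2 and 9.33 in BD, 8.17, 8.78 and 8.3 in SEW, and 9.14, 9.23 and 9.35 in BD/SEW. The SEW arrays were the 3 lowest. It fell by 1.1 in SEW against sham (adjusted p = 0.0048 by limma) and rose by 0.82 in BD/SEW against SEW (adjusted p = 0.0065). Cd83, a surface protein of mature dendritic cells that protects class II molecules from that ligase, was 9.7, 10.06 and 10.31 in sham, 10.18, 10.09 and 10.08 in BD, 9.13, 9.58 and 8.65 in SEW, and 10.52, 10.51 and 10.54 in BD/SEW. It rose by 1.4 in BD/SEW against SEW (adjusted p = 0.0015). Its difference of -0.9 in SEW against sham (adjusted p = 0.03) was called in 2 of 6 fits that left out an array (lowest -1.13; not without sham 2, sham 3, SEW 1 or SEW 3). Cd86, a costimulatory ligand for CD28, rose by 1 ± 0.21 in BD/SEW against SEW (adjusted p = 0.011). The fifth to rise there was Il10, a cytokine that lowers class II at the surface, at 0.97 (adjusted p = 0.0021), from a mean level of 4.93 in SEW, below the lower quartile of the arrays. Its difference of 0.67 in BD/SEW against sham (adjusted p = 0.04) was called in 0 of 6 fits that left out an array.

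In BD/SEW against SEW, where Irf1, Rfx5 and Cd40 rose by 2.44, 0.76 and 2.28, the differences of the 8 members were 0.4 for Ciita, 0.47 for RT1-DMb, 0.38 for RT1-DMa, 0.41 for RT1-Ba, -2.1 for RT1-Bb, 0.11 for RT1-Db1, 0.06 for Cd74 and -0.04 for RT1-Da, none of them called. Other genes of the same lists were not called there either, such as the kinase gene Jak1 (0.06) and the transcription factor gene Irf2 (-0.05). The difference between a regulator's change and a member's change was not tested. Of 11 genes of endosomal processing, the proteases and their partners that cut antigen and invariant chain, 0 passed in any of the 6 comparisons, where 0, 1, 0, 1, 1 and 0 had an unadjusted p under 0.05. Ctsz, a cathepsin, had 0.58 in BD/SEW against SEW (adjusted p = 0.13 by limma), and Cst3, a cathepsin inhibitor, had 0.52 in SEW against sham (adjusted p = 0.11). None of 5 further class II molecules on the list, such as RT1-DOa and RT1-DOb, was matched to a probe set by symbol, and they were not analysed here.

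**Figure D5:**
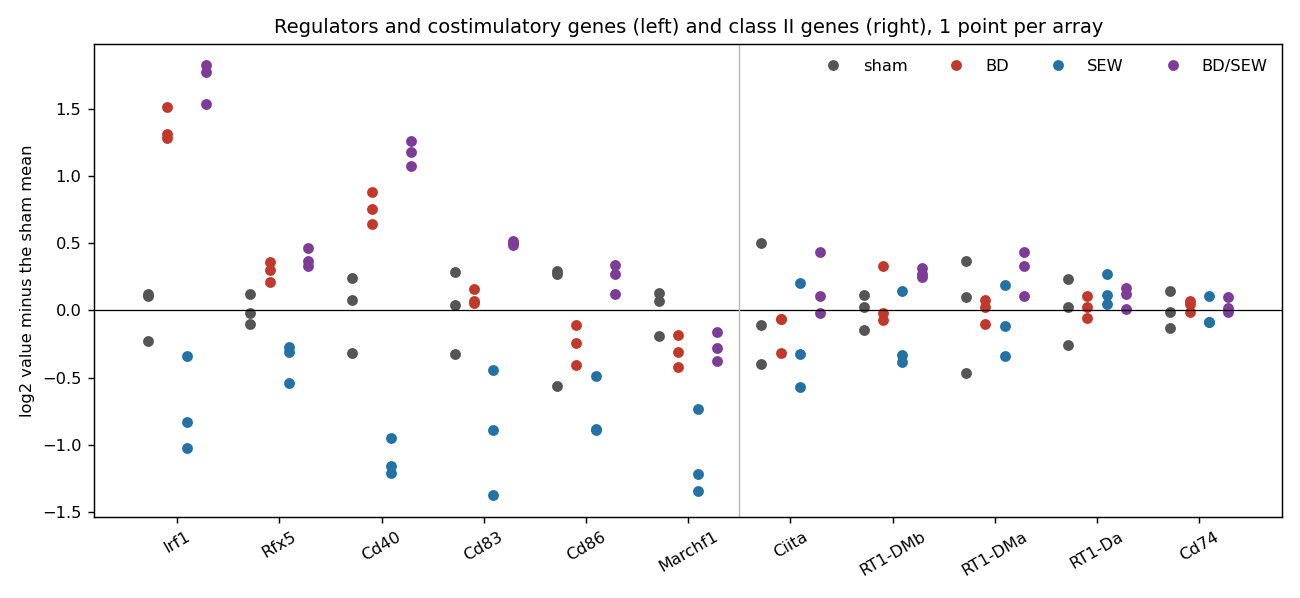
Log2 value minus the sham mean (vertical axis) of 6 regulators and costimulatory genes, left of the line, and 5 class II genes, right of it, with 1 point per array and colours for the 4 groups. The 6 genes on the left were picked from those called in BD/SEW against SEW. Uncalled genes of the same lists are not drawn, nor are RT1-Db1, RT1-Ba and RT1-Bb. Cd40 runs from a SEW mean of 7.93 to a BD/SEW mean of 10.21. The arrays of Cd74, near the top of the scale, stay between 13.67 and 13.94.

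Markers of cells that carry class II were compared as lists, which were also chosen with earlier results of these data known. In a piece of tissue, fewer cells of a type and less RNA per cell cannot be told apart. Of 9 B-cell genes, 0 passed in BD against sham, 1 fell in SEW against sham and 1 rose in BD/SEW against SEW, in both cases Pou2af1, a B-cell coactivator (-1.05 and 1.52). The mean of the 9 was 7.44 to 8.02 in sham, 7.67 to 7.77 in BD, 6.7 to 7.92 in SEW and 7.57 to 7.95 in BD/SEW. The fall was called in 2 of 6 fits that left out an array (lowest -1.27; not without sham 2, sham 3, SEW 1 or SEW 3). Of 8 dendritic-cell genes, Clec10a, a lectin, had -0.99 in BD against sham (adjusted p = 0.048 by limma; called in 2 of 6 such fits, not without sham 1, sham 2, BD 1 or BD 3). It had -0.96 in SEW against sham (adjusted p = 0.02; called in 3 of 6, not without sham 1, sham 2 or SEW 3). Batf3, a transcription factor of cross-presenting dendritic cells, had 0.84 in BD/SEW against SEW (called in 3 of 6, not without SEW 3, BD/SEW 1 or BD/SEW 2) and Clec9a, a receptor of the same cells, had -0.69 (called in 1 of 6, the one without SEW 1). The mean of the 8 lay between 8.16 and 8.52 in all arrays.

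Of 16 macrophage and monocyte genes, Cd163, a scavenger receptor, rose by 0.92 in BD/SEW against SEW (adjusted p = 0.0011 by limma). Its difference in SEW against sham was -0.57 (adjusted p = 0.028) and was called in 0 of 6 fits that left out an array. Pparg, a nuclear receptor of alveolar macrophages, had -0.68 in BD/SEW against SEW (called in 1 of 6, the one without SEW 1), and 0 of 16 passed in the other comparisons. The mean of the 16 was 8.64 to 9.11 in sham, 8.6 to 8.99 in BD, 8.54 to 9.21 in SEW and 8.79 to 9.03 in BD/SEW. Of 10 alveolar type 2 genes, Lpcat1, an enzyme of surfactant lipid synthesis, rose by 0.62 in BD/SEW against SEW and by 0.72 in BD/SEW against sham. Of 12 T-cell genes, 0 passed in any comparison, with 0, 2, 0, 1, 0 and 1 at an unadjusted p under 0.05 in limma. In the other lists, 4 of 9 neutrophil genes were called higher in BD/SEW against SEW, beside 4.75% of all genes. In that comparison the mean of the 9 was 8.82 to 10.68 in SEW and 11.29 to 11.78 in BD/SEW. Camp (3.73) and Mmp9 (3.32) were called in 6 of 6 fits that left out an array, S100a8 (1.43) in 4, not without SEW 3 or BD/SEW 1, and S100a9 (1.01) in the 1 without SEW 2. In SEW against sham, Camp had -2.34 (adjusted p = 0.018 by limma; called in 5 of 6 such fits, not without sham 3) and Mmp9 -2.12 (adjusted p = 0.024; called in 2 of 6, not without sham 1, sham 3, SEW 1 or SEW 3). Of 11 endothelial genes, the junction gene Cldn5 fell by 0.83 in BD/SEW against SEW. Sox17, a transcription factor, had -0.88 in BD/SEW against SEW and was called only in the fit without SEW 2. In SEW against sham, Sox18, a transcription factor of the same family, rose by 1.62 ± 0.28 (adjusted p = 0.011 by limma; called in 6 of 6 such fits), and Cldn5 had 0.58 (adjusted p = 0.032; called in 1 of 6, the one without sham 3). The part of these cells in the values of the class II genes was not tested.

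The fat genes Cidec, Plin1 and Thrsp were called lower in SEW against sham (-2.87, -3.28 and -4.35) and in BD/SEW against sham (-2.86, -3.15 and -3.93), and Adipoq (-3.65) and the cardiac troponin gene Tnnc1 (-3.94) for SEW against sham. Leaving out each compared array in turn, Cidec was called in 5 of 6 fits for SEW against sham (not without sham 1) and in 2 of 6 for BD/SEW against sham, Thrsp in 2 and 0, Adipoq and Tnnc1 in 1, and Plin1 in 0 and 0. With the cardiac markers or the adipocyte markers as a covariate, 0 of 8 class II genes passed in any comparison. Over all 14217 genes, the cardiac covariate left 24 calls in SEW against sham and 12 in BD/SEW against sham. The adipocyte covariate left 12 and 2. With so few calls, 0 of 8 is near the background there. In BD/SEW against SEW the covariates left 1278 and 1315 calls. Without sham replicate 3, BD replicate 2 and SEW replicate 2 together, the count of class II genes was 0 as well. For the surrounding genes, the cardiac covariate ended several calls made against sham: Marchf1 in SEW against sham then had -1.05 (adjusted p = 0.12 by limma), Cd40 had 0.64 in BD against sham (adjusted p = 0.16) and 0.97 in BD/SEW against sham (adjusted p = 0.091), and Irf1 had -0.74 in SEW against sham (adjusted p = 0.28). Calls also ended in SEW against sham for Cd83 (-1.06 with the covariate, -0.9 without), Clec10a (-0.83 and -0.96), Cd163 (-0.5 and -0.57), Pou2af1 (-1.06 and -1.05), Camp (-2.72 and -2.34), Mmp9 (-2.2 and -2.12), Sox18 (1.13 and 1.62) and Cldn5 (0.44 and 0.58). The same held for Clec10a in BD against sham (-0.92 and -0.99) and, in BD/SEW against sham, for Lpcat1 (0.56 and 0.72), Ifngr2 (0.68 and 0.82), Socs1 (1.46 and 1.34) and Il10 (0.83 and 0.67). All of these kept their sign. The cardiac mean was 9.8 to 10.82 in sham, 5.89 to 7.68 in SEW and 6.12 to 8.41 in BD/SEW. The adipocyte mean was also higher in sham than in SEW and BD/SEW, without overlap. In SEW against sham and BD/SEW against sham, either covariate can thus hardly be told apart from the group. A call can end there through a wider error alone, and the part of cardiac or fat tissue in these differences was not tested. Sox17 lost its call in BD/SEW against SEW (-0.87, adjusted p = 0.054 by limma). Irf1 kept its call in BD against sham with either covariate (adjusted p = 0.019 and 0.048 by limma). Cd40 still fell in SEW against sham with that covariate (-1.32, adjusted p = 0.022). In BD/SEW against SEW, where cardiac levels overlapped, Irf1, Rfx5, Cd40, Cd83, Cd86, Marchf1, Socs1, Ifngr2 and Gbp2 kept their calls with either covariate. The adipocyte covariate also ended the calls of Irf1 in BD/SEW against sham (adjusted p = 0.079 by limma) and of Clec9a in BD/SEW against SEW (adjusted p = 0.052).

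The mean of all 8 members follows the 2 levels of RT1-Bb, so no genes are ranked by likeness to it. Over the 12 arrays, the genes most like the mean of the 6 members without RT1-Ba and RT1-Bb, a choice made after their values were seen, were Il18bp (r = 0.85), Ifi30 and Ifih1 (0.83), Bid (0.82), Sts, Gtf2b and Capg (0.8), and Ptger2, S100a4 and Prdx5 (0.79). Ifi30, which encodes the thiol reductase of the class II pathway, is on the list of endosomal processing; its level was 11.65, 11.79 and 11.46 in sham, 11.47, 11.63 and 11.6 in BD, 11.59, 11.7 and 11.33 in SEW, and 11.78, 11.67 and 11.61 in BD/SEW. These correlations are descriptions over arrays that share their scaling, chosen as the highest of all genes.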

How the data were processed

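Expression was measured in lung on 12 arrays, 3 in each of 4 groups taken from the sample labels. The deposited values are log2 levels per probe set; per the submitters' processing notes, the tools were RMA, MAS5 and affy, with neither version nor role given. At any rank the arrays lay within 0.22 of each other. Scanner files were not used here.

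In the annotation 20826 probe sets have 1 symbol, 436 have several and 9780 have none; 20758 of those with 1 matched RefSeq (GRCr8), used for names, gene order and promoters. For a gene with several probe sets the one with the highest mean was tested (14217 genes). Groups were compared with limma 3.58.1 (R 4.3.3; two-sided, variance trend, Benjamini-Hochberg over all genes, called at an adjusted p under 0.05), a fit checked on simulated data. Near copies of RT1 genes can share probes.

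The members and gene lists were chosen with earlier results of these data known. Named are all members, and of each list up to 4 called genes per comparison, or 2 where none was called; genes most like 6 of the members were ranked by Pearson r over the 12 arrays, and the planned ranking on all 8 is not given. Values of list genes outside this rule were named after they were seen. Of 4 ciliated-cell genes 0 passed, and of 17 cardiac genes 1 and of 11 adipocyte genes 4 fell in SEW against sham. Alternatives were a block for the replicate number, a fit restricted to the groups compared, no trend, array weights, median centring, every probe set or their mean, dim genes left out, cardiac or adipocyte covariates, stricter thresholds and arrays left out.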

Additional observations from a re-analysis of the deposited data

Results flagged for a closer look

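For 4 genes of the lists, none of them a class II member, the brain-death effect with the agonist differed from that without it by the interaction term in limma. Cd40 had an interaction of 1.52 (log2; adjusted p = 0.0077), called in 12 of 12 fits that left out an array. Marchf1 had 1.13 (adjusted p = 0.039), called in 2 of 12. Camp, a neutrophil granule gene, had 3.4 (adjusted p = 0.037), called in 2 of 12. Mmp9, a neutrophil protease, had 3.11 (adjusted p = 0.047), called in 1 of 12. With the cardiac covariate, the interaction of Cd40 was 1.65 and still called (adjusted p = 0.0082 by limma). Marchf1 had 1.1 (adjusted p = 0.091), Camp 3.62 (0.053) and Mmp9 3.16 (0.091), close to or above the values without the covariate, and were not called.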

How the results depend on the processing

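No class II gene was called under 23 of the 25 alternatives. The exceptions were array weights, with 2 called in BD/SEW against SEW (RT1-DMa, 0.5, adjusted p = 0.045 by limma; RT1-DMb, 0.5, adjusted p = 0.013) and 1 in BD/SEW against sham (RT1-Ba, 0.72, adjusted p = 0.031), and leaving out SEW replicate 1. With array weights, 2506 of all 14217 genes were called in BD/SEW against SEW and 2685 in BD/SEW against sham. The main fit called 1392 and 408. Leaving out each array in turn gave 0 to 1 members in BD/SEW against SEW and 0 in the other comparisons. Of 1192 values of single members under an alternative, 63 changed sign after rounding to 2 decimals, none of these called in either fit. Of the rest, 1125 kept their side of the threshold. A value whose main estimate rounds to 0 could not count as a change of sign. With 3 arrays a group, small differences have no settled sign. With the replicate block 0 members passed in any comparison (RT1-DMb in BD/SEW against SEW, 0.47, adjusted p = 0.088 by limma). The block ended the calls of Cd40 in BD against sham (adjusted p = 0.067) and of Camp (0.053) and Mmp9 (0.07) in the interaction. The numbers were not taken as pairs because the labels do not say that they pair animals. Over 18 pairs of arrays of the same number the deviations correlated at -0.19 to 0.38, with 8 over 0.1. Of the 12 arrays, 9 were closest to one of their own number, so a shared effect of the number is not excluded. Whether arrays of one number were handled together is not stated and was not tested.

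The signs that changed on values rounded to 2 decimals were these. The cause was not tested. With array weights (0.25 for sham replicate 3 and 0.32 for SEW replicate 2, the lowest), BD against sham gave -0.08 for RT1-Da, -0.06 for RT1-Db1 and -0.02 for Cd74, BD/SEW against SEW 0.01 for RT1-Da, BD/SEW against sham -0.03 for Cd74, and the interaction 0.1 for RT1-Da. Median centring gave -0.03 for RT1-Ba in BD/SEW against BD. With the probe set of smallest p per gene, RT1-Db1 had -0.5 in BD against sham and -0.5 in BD/SEW against sham, RT1-Ba had -0.16 in BD/SEW against BD, and RT1-Bb had 0.41 for SEW against sham, 0.25 for BD/SEW against BD and 0.6 for BD/SEW against sham. With the mean of a gene's probe sets, RT1-Ba against sham had -0.24 for BD, -0.13 for SEW and -0.27 for BD/SEW, its values for BD/SEW were -0.03 against BD and -0.15 against SEW, and its interaction was 0.09. RT1-Db1 then had -0.25 in BD against sham, -0.01 in BD/SEW against SEW and -0.21 in BD/SEW against sham, and RT1-Bb 0.11 in BD/SEW against BD. The adipocyte covariate gave -0.01 for RT1-DMb in BD against sham, and for Cd74 0.04 in SEW against sham and -0.02 in the interaction. Without sham replicate 3, BD replicate 2 and SEW replicate 2 together, a choice made after seeing the data, BD against sham gave -0.14 for RT1-Da, -0.08 for RT1-Db1 and -0.05 for Cd74. It also gave -0.03 for RT1-Da and -0.03 for Cd74 in BD/SEW against sham, and 0.09 for RT1-Da as the interaction.

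Leaving out each array in turn, BD against sham ran from -0.1 to 0.14 for RT1-Da, -0.07 to 0.11 for RT1-Db1, -0.05 to 0.15 for RT1-DMb, -0.03 to 0.11 for Cd74 and -0.35 to 0.1 for Ciita. SEW against sham ran from -0.14 to 0.07 for RT1-Db1, -0.32 to 0.09 for RT1-DMa, -0.09 to 0.05 for Cd74 and -0.45 to 0.02 for Ciita. BD/SEW against BD ran from -0.25 to 0.22 for RT1-Ba and -2.32 to 2.24 for RT1-Bb, and BD/SEW against SEW from -0.09 to 0.02 for RT1-Da. BD/SEW against sham ran from -0.03 to 0.22 for RT1-Da, -0.03 to 0.11 for Cd74 and -0.02 to 0.43 for Ciita. The interaction ran from -0.18 to 0.06 for RT1-Da, -0.05 to 4.51 for RT1-Bb and -0.05 to 0.09 for Cd74. From main values of 0, RT1-DMa ran from -0.23 to 0.18 in BD against sham, and Cd74 from -0.03 to 0.02 in BD/SEW against BD.

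Counts over all genes, 84, 830, 2, 1392, 408 and 135 in the 6 comparisons in the order of the report, moved by more than 1.5 times in these cases. On the compared arrays only they were 13 for BD against sham, 257 for SEW against sham, 8 for BD/SEW against BD and 685 for BD/SEW against sham. Array weights gave 383, 1556, 5, 2506, 2685 and 464. The cardiac covariate gave 28 for BD against sham, 24 for SEW against sham, 12 for BD/SEW against sham and 81 for the interaction, and the adipocyte covariate 22, 12, 2 and 45. At an adjusted p under 0.01 they were 22 for BD against sham, 109 for SEW against sham, 629 for BD/SEW against SEW, 89 for BD/SEW against sham and 24 for the interaction. With a change of at least 1.5-fold, 512 were called in SEW against sham and 914 in BD/SEW against SEW. With the probe set of smallest p, 87 were called in the interaction, and with dim genes left out 1 in BD/SEW against BD. Without the 3 arrays together they were 499 in BD against sham, 1160 for BD/SEW against sham and 418 for the interaction. Leaving out each array in turn gave 26 (without BD replicate 1) to 227 (without BD replicate 2) in BD against sham, 321 (without sham replicate 3) to 1006 (without BD replicate 2) in SEW against sham, and 1 to 5 in BD/SEW against BD. It gave 790 (without BD/SEW replicate 1) to 1811 in BD/SEW against SEW, 91 (without BD/SEW replicate 2) to 634 (without SEW replicate 2) in BD/SEW against sham, and 38 (without BD/SEW replicate 2) to 235 (without SEW replicate 2) in the interaction.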
